A study of Mus musculus with 13 samples.

Results

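The podocyte nuclei were 912 of 28316 nuclei profiled by single nuclei ATAC-seq (snATAC-seq) in mouse kidney, and were taken as the nuclei that the deposited annotation places in its podocyte cluster. Of all nuclei, 27652 carried 1 of 13 main cell type names, and podocytes were compared with the other 12. The study asked how open chromatin and gene expression define the cell types of the developing and the adult kidney. Whole kidneys were taken at birth (P0, 2 samples), at 3 weeks (P21, 1 sample) and at 8 weeks (P56, 2 samples), and P21 and P56 are together called adult. The labels give no allele, transgene or treatment, and the groups used here differ by stage. The annotation names each sample as a batch of its own, and P0 kidneys were lysed in a smaller volume than older ones. Stage therefore cannot be told apart from batch or preparation. The methods name wild type C57BL/6 mice for the kidneys of the matching single cell RNA-seq, and the strain of the snATAC-seq mice was not given in the sources used here. In snATAC-seq a transposase inserts adapters where DNA is accessible, and a droplet barcode ties each fragment to its nucleus. Here each nucleus was scored as open or not open at 300755 peaks, and 1 such positive score is called an open call.

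Podocytes are the epithelial cells that cover the outside of the glomerular capillaries. They extend interlocking foot processes that are joined by the slit diaphragm, a cell junction built around nephrin, and with the glomerular basement membrane they form the filter that keeps protein out of the urine. They arise from nephron progenitors, leave the cell cycle as they mature, and depend on transcription factors such as WT1, TCF21 and LMX1B.

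P0 replicates 1 and 2 held 307 and 362 podocyte nuclei, the P21 sample 47, and P56 replicates 1 and 2 held 157 and 39. These were 5.19% and 6.76% of the nuclei of the 13 types at P0, against 1.44%, 2.27% and 0.629% in adult kidneys. Both P0 values lay above all adult values (5.97% ± 1.11, SD, n = 2, against 1.45% ± 0.818, n = 3), and an exact two-sided permutation test gave p = 0.2, the smallest value that 2 against 3 samples allow. In the deposited single cell RNA-seq annotation, which has 1 library per stage and no test, 928 of 25138 P0 cells (3.69%, exact 95% binomial interval 3.46 to 3.93%) and 54 of 18498 adult cells (0.292%, 0.219 to 0.381%) were named podocytes. These intervals cover the counting of cells within 1 library and not the spread between libraries. The median podocyte nucleus had 3387, 4506.5, 3546, 2613 and 5017 open peaks in the same order of samples, and the podocyte sums held 192729 to 1834632 open calls. The P21 sample and P56 replicate 2 therefore carried the least precise podocyte values. Across samples 477 barcodes occurred more than once, and 30 podocyte nuclei had such a barcode, of which 1 barcode was called podocyte in both samples.

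The podocyte label held at its markers. Gene activity, the open calls in peaks over a gene body and the 2 kb before it, per 1000000 open calls of the podocyte sum, came to 133 and 132 for *Nphs1*, the nephrin gene, in the P0 samples and to 166, 103 and 153 in the P21 and P56 samples. The next cell type, PCT (proximal convoluted tubule), had 26.6 ± 15.3 (SD, n = 5 samples), and the 5 podocyte values all lay above it. *Wt1*, a zinc finger transcription factor, had 157, 179, 202, 162 and 111, against 53.3 ± 61.9 in nephron progenitors. That wide SD covered progenitor values that were high in both P0 samples and low in the 3 adult ones, and podocytes led in 5 of 5 samples. Summed over 6 podocyte markers, among them *Nphs1*, *Wt1*, *Podxl* and *Synpo*, the level was 1007 to 1391 in podocytes and 660 in the next type.

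**Figure D1:**
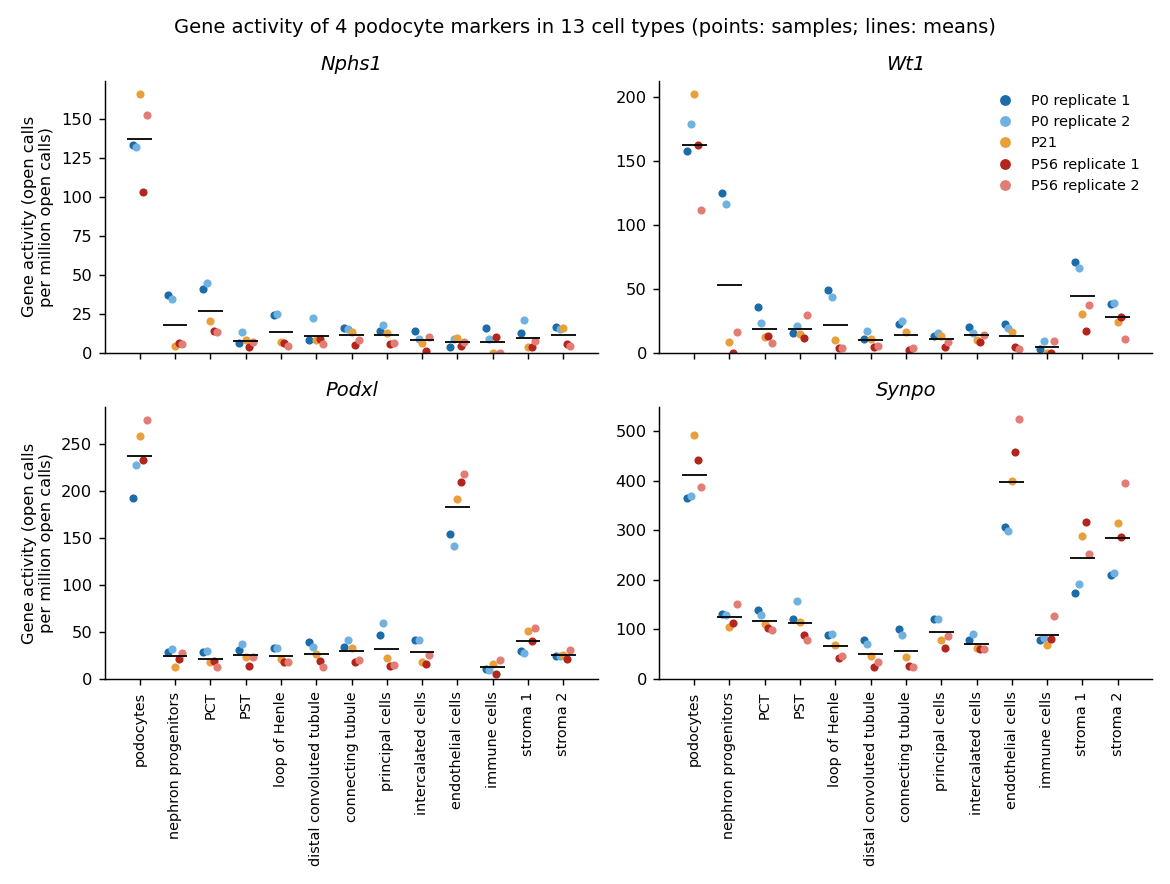
Gene activity (open calls in the gene body and 2 kb upstream per 1000000 open calls, vertical axes) of 4 podocyte markers in the 13 cell types, 1 point per sample and a line at the mean of 5 samples. The 5 podocyte points for Nphs1 lie from 103 to 166, above the mean of 26.6 in the next type, while endothelial cells come close for Podxl and overlap podocytes for Synpo.

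Most marker lists of other cell types were low in podocyte nuclei but were not all at 0, and the parietal epithelium list was not low. The defining immune gene *C1qb* and *Atp6v1g3* of intercalated cells each had 1 open call in all podocyte nuclei together. A list of 7 endothelial markers summed to 72.6 to 173, against 1409 in endothelial cells, and 4 immune markers to 28.9 to 42.0, against 449 in immune cells. Mesangial markers summed to 120 to 233, against 560 in stroma 1, and the lists of loop of Henle, distal tubule, collecting duct and stroma to at most 57.7, 99.0, 44.7 and 79.6, against 340, 719, 246 and 232 in the cell types they mark. A set of 5 genes of the parietal epithelium, the neighbouring layer of the glomerulus, which has no cluster of its own here, summed to 346 to 459 (mean 403), against 519 in nephron progenitors, the highest type, and podocytes ranked 4 of 13. Of these genes *Ncam1* had its highest mean in podocytes (142 ± 28.2, SD, n = 5), with 140 ± 64.9 in PCT. The 7 proximal tubule markers summed to 234 and 206 at P0 but to 389, 280 and 487 in adult podocytes, against 1177 in PCT. The adult podocyte sums thus held more proximal tubule signal than the P0 sums, with P56 replicate 2 the highest, and their part in the values was not tested.

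To find elements open mainly in podocytes, open calls were summed per sample and cell type and podocytes were compared with each of the other 12 types, with the sample as a block. A peak was called podocyte-specific when it was higher than in each of the 12 at an adjusted threshold of 0.05. Because the clusters were made from the same nuclei, this rule ranks peaks and no p-value is given. It was met by 1485 of 88914 peaks tested (1.67%). Endothelial cells had 6323 such peaks, PCT 2410 and nephron progenitors 44. The smallest fold of a podocyte-specific peak over any other type had a median of 2.48 on the log2 scale (quartiles 1.92 and 3.30), and 1304 of the 1485 peaks (87.8%) were most open in podocytes in every sample. The rule chose these peaks on the same samples, which favours such a lead. The count fell to 142 when every nucleus was thinned to 1000 open peaks, and to 777 without P0 replicate 2, the sample with the most podocyte nuclei.

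The typical podocyte-specific peak was open in few nuclei. In the median, 8.14% and 10.5% of P0 podocyte nuclei had it open, against 10.6% of P21 nuclei and 8.28% and 15.4% of P56 nuclei. The highest other cell type in the same sample reached 2.96%, 3.18%, 1.92%, 1.13% and 1.89%. The highest sample, P56 replicate 2, was also the one with the most open peaks per nucleus. The next most open type was the nephron progenitor, from which podocytes derive, for 579 peaks (39.0%), stroma 2 for 191 and PST (proximal straight tubule) for 151. Peaks high in podocytes together with 1 other type, and above the remaining 11, numbered 24 with stroma 2, 16 with nephron progenitors, 11 with PCT and 8 with endothelial cells.

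Most of these peaks lay away from start sites. Introns held 784 (52.8%), distal sequence 407 (27.4%), exons 224 (15.1%) and the 5 kb before a start site 70 (4.71%). The distal and intronic share was 80.2%, against 64.3% of all tested peaks and 78.3% of all peaks. A start site lay inside 48 peaks (3.23%), against 20.2% of tested peaks. Their median distance to the nearest start site of a protein-coding gene was 27665 bp, against 15519 bp for tested peaks, and 28809 bp for all peaks. The podocyte-specific peaks thus lay farther out than the tested peaks and at about the distance of the whole peak set.

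**Figure D2:**
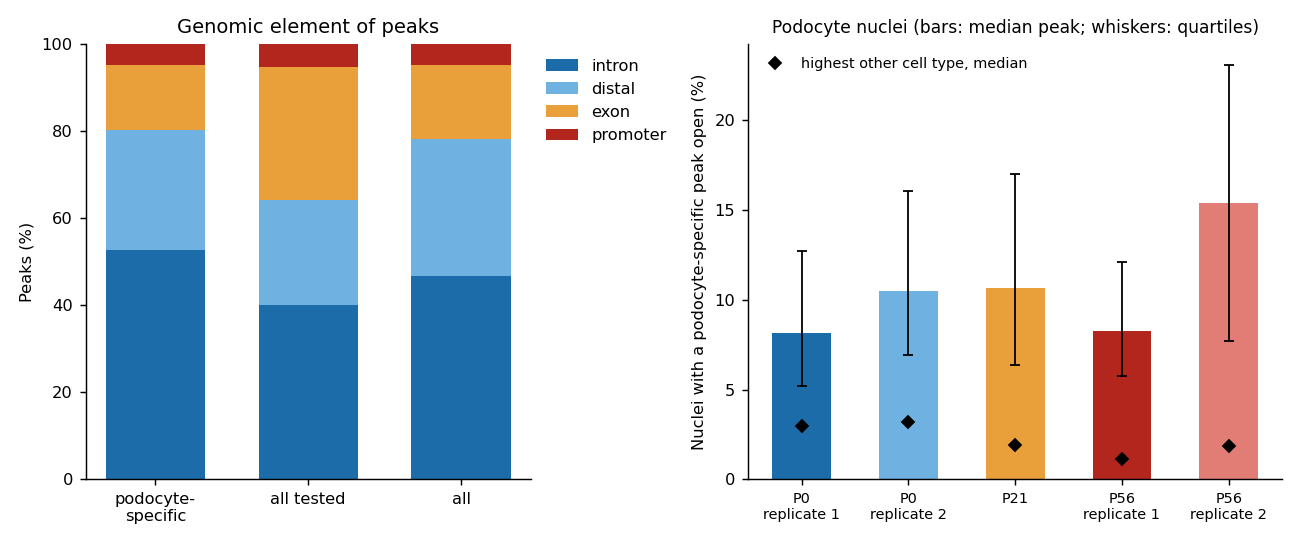
Left, share of peaks by genomic element for 1485 podocyte-specific peaks, 88914 tested peaks and all 300755 peaks. Right, percentage of podocyte nuclei in which a podocyte-specific peak was open in each sample (bar, median over peaks, whiskers, quartiles), with the highest other cell type as a diamond, which stays below the lower quartile in every sample.

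The sequences below show the elements at known podocyte genes and the most open intronic and distal elements of all. They are the central 300 bases or fewer of each peak on the plus strand of mm10 (GRCm38), and capitals mark letters of any of 15 motifs searched on both strands, described after them. No intronic or distal podocyte-specific peak was nearest to *Nphs1* or *Wt1*. The exonic peak 27 bp from the *Nphs1* start site, added after its values were seen, was open in 25.4% and 28.5% of P0 podocyte nuclei and in 27.7%, 15.3% and 33.3% of adult ones, against 6.81% ± 6.52 (SD, n = 5) in PCT, the next type, so the 5 podocyte values lay above that mean.

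*Podxl* encodes podocalyxin, the negatively charged mucin of the podocyte surface, and *Magi2* a scaffold protein that binds nephrin. The *Podxl* element (chr6:31627555-31628679) lay in an intron of the noncoding gene Gm43154, 64136 bp from the *Podxl* start site. It was open in 20.2%, 26.2%, 40.4%, 19.1% and 48.7% of podocyte nuclei (30.9% ± 13.1, SD, n = 5) and in 2.25% of endothelial nuclei, the next type. The *Magi2* element (chr5:19180835-19181470) lay in no gene, 45884 bp from the start site, and was open in 14.7%, 21.5%, 38.3%, 15.3% and 25.6% (23.1% ± 9.65), against 1.00% in intercalated cells. Both held letters of the TEAD and AP-1 motifs, and the 5 podocyte values lay above the next type's mean for both.
Podxl element, chr6:31627968-31628267: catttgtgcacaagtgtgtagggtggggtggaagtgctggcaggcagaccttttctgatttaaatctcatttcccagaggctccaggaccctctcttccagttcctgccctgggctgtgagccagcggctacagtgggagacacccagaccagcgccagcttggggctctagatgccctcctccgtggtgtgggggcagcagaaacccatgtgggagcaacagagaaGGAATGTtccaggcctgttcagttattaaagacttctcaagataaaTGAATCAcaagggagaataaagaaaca
Magi2 element, chr5:19181003-19181302: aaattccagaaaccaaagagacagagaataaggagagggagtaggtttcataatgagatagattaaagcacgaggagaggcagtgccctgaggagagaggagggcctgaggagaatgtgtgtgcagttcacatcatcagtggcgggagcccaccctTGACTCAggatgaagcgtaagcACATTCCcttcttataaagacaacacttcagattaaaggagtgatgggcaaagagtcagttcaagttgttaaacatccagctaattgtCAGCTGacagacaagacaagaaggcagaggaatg

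*Vegfa* encodes the growth factor through which podocytes maintain the capillary endothelium. The most open *Vegfa* element (chr17:45931162-45931923, 99814 bp from the start site) was open in 19.99% ± 3.47 (SD, n = 5) of podocyte nuclei and in 6.90% of PCT nuclei.
Vegfa element, chr17:45931393-45931692: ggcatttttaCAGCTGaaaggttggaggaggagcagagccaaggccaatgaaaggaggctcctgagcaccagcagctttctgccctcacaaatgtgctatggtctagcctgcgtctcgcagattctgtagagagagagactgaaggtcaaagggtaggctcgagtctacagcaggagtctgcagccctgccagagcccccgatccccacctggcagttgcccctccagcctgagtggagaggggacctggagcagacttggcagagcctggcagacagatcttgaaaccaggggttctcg

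Other list genes had strongly open elements as well, and the *Lmx1b* and *Ntrk3* peaks were chosen after their values were seen. An intronic *Lmx1b* peak (chr2:33605249-33606428) was open in 24.1%, 31.8%, 42.6%, 28.7% and 35.9% of podocyte nuclei, against 7.19% ± 8.19 (SD, n = 5) in nephron progenitors. The most open *Synpo* peak, also intronic and 3706 bp from the start site, was open in 26.4%, 37.0%, 36.2%, 22.9% and 38.5%, against 3.08% ± 3.62 in nephron progenitors, and its sequence is not shown. An intronic peak at *Ntrk3*, a neurotrophin receptor gene, was open in 13.4%, 15.5%, 40.4%, 22.9% and 38.5%, against 0.784% in distal convoluted tubule. The *Ntrk3* peak was, of these 3, the least open in any other type, and its 3 adult values lay above both P0 values. Some start sites were open more widely. The *Wt1* start site was open in 33.6% ± 10.2 of podocyte nuclei and 15.8% ± 19.98 of nephron progenitors, and the *Vegfa* start site in 19.3% ± 5.89, below PST with 30.0% ± 10.8.

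The 4 most open intronic or distal elements of all were nearest to *Trib2*, *Rhpn1*, *Gmds* and *Pcsk6*. The first (chr12:15698306-15699490), in the transcribed pseudogene Gm4804 and 117887 bp from *Trib2*, was open in 36.2% and 36.7% of podocyte nuclei at P0 and in 63.8%, 30.6% and 66.7% of adult ones, against 15.2% of nephron progenitors. The second (chr15:75697069-75697650), 6921 bp from *Rhpn1*, the gene for rhophilin, was open in 23.5%, 37.0%, 42.6%, 28.0% and 64.1%, against 0.726% in stroma 2. The element near *Gmds* (chr13:32518601-32519547) was open in 38.0% ± 9.54 of podocyte nuclei and in 22.8% of PST nuclei, and that in an intron of *Pcsk6* (chr7:65902322-65903253), a proprotein convertase gene, in 37.5% ± 7.84 and in 12.5% of stroma 2 nuclei. Of these 4, the *Rhpn1* element was the one least shared with another type, and the *Gmds* element alone held the WT1 letters.
Trib2 element, chr12:15698749-15699048: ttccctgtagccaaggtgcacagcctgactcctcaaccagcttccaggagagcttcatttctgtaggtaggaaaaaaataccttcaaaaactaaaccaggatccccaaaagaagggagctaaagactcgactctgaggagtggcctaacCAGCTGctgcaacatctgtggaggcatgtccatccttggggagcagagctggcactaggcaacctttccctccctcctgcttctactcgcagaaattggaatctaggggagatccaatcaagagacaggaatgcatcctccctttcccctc
Rhpn1 element, chr15:75697210-75697509: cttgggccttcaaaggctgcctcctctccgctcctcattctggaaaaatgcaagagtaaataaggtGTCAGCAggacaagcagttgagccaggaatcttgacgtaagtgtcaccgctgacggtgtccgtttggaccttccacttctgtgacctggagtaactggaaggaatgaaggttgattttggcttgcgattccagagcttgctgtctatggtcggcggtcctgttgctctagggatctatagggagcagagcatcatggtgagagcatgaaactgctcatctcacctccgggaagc
Gmds element, chr13:32518925-32519224: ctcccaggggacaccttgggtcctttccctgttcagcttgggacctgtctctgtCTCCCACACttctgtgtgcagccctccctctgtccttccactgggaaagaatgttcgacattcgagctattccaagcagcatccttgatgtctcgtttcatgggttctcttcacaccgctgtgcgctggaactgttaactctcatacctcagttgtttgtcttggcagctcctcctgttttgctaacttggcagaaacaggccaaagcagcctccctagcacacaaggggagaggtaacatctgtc
Pcsk6 element, chr7:65902638-65902937: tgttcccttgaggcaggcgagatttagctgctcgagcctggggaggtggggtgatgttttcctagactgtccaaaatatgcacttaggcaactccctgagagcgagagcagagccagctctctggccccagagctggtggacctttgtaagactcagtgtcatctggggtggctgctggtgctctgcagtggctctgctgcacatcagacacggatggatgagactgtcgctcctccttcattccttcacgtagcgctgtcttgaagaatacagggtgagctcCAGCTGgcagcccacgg

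Of 15 motifs searched in the central 300 bp, several of those of podocyte transcription factors were more frequent in podocyte-specific peaks than in tested peaks. The WT1 letters (GNGTGGGAG) were in 148 of 1485 podocyte-specific peaks (9.97%), against 3.78% of tested peaks, 2.86% of all peaks and at most 3.29% of the peaks specific to any of 7 other types with at least 50 such peaks. The LMX1B homeodomain letters (TAATTA) were in 17.6%, against 7.04% of tested peaks and at most 9.79% elsewhere. The TEAD letters (ACATTCC), bound by the partners of YAP, were in 16.6%, against 6.29% and at most 8.80%.

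EGR letters (GCGTGGGNG), which overlap with those of WT1, were in 2.49%, against 1.27% of tested peaks, but over whole peaks the shares were 3.57% and 3.19%. The letters of a MAF site (TGCTGAC) were in 11.6%, below the 13.4% of PCT-specific peaks. The E-box of TCF21 (CAGCTG) was in 34.6%, beside 36.1% in stroma 2, and FOX letters (TGTTTAC) were in 7.61%, against 17.9% in intercalated cells. Which factors bind at these letters was not tested. Among the 8 types, podocytes therefore ranked first for 4 motifs and second for 3. They ranked last for ETS (AGGAAGT, 6.33%, against 10.6% of tested peaks), HNF4 (AAAGTCCA, 0.875%, against 2.11%) and AP-1 (TGANTCA, 9.63%, against 9.86%). The letters of SIX2 (AAACCTGA), CTCF (CCACNAGG) and SOX factors (ACAATGG) were in 1.14% to 4.85%, and those of RUNX factors (TGTGGTT) and of GATA factors (AGATAAG) in 5.32% and 3.03%, each below its share of tested peaks. Median GC content was 48.3% in podocyte-specific and 50.3% in tested peaks.

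**Figure D3:**
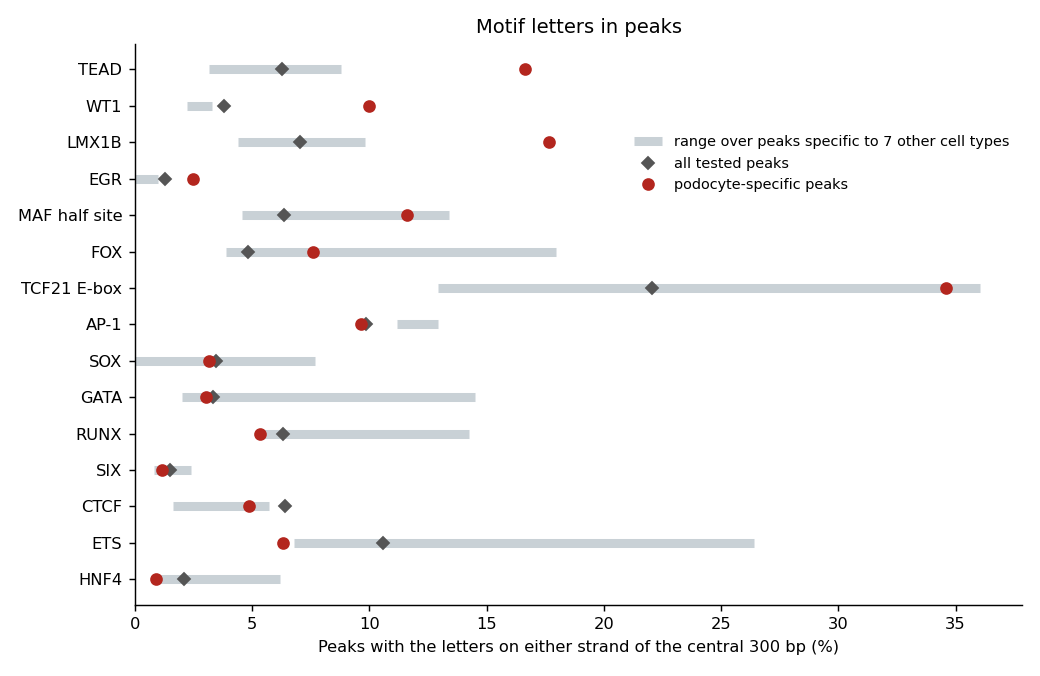
Percentage of peaks whose central 300 bp hold the letters of each of 15 motifs on either strand, for podocyte-specific peaks (red), all tested peaks (grey diamonds) and the range over the peaks specific to 7 other cell types (bars). TEAD, WT1, LMX1B and EGR letters lie at 16.6%, 9.97%, 17.6% and 2.49% in podocyte-specific peaks, above the range of the other types, and ETS, HNF4 and AP-1 letters lie below it.

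A search of all 2080 words of 6 bases, made after the motifs were known, set 1191 intronic and distal podocyte-specific peaks beside the other tested peaks of that kind. The word with the largest difference was ACTCCC, in 31.1% against 16.7%, followed by GTGGGA in 34.6% against 21.6%, which is part of the WT1 letters. Next came CATTCC, part of the TEAD letters, in 33.5% against 20.5%. TAATTA was in 19.2% against 8.42%. The word AGGAAG, the core of ETS sites, had the largest difference the other way, 32.3% against 41.2%, and was in 64.6% of endothelial peaks.

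Gene activity was then compared by the same rule. It was met by 93 of 16860 genes (0.552%), and 1 gene, *Vav3*, an exchange factor for small GTPases, was lower in podocytes than in each other type (0.00593%). The count of 93 fell without the sample as a block and with any 1 sample left out. *Vav3* had 47.5 ± 22.5 (SD, n = 5) in podocytes and 75.7 ± 23.7 in stroma 2, the next lowest. Podocytes were the lowest type for it in 3 of 5 samples, and their P56 replicate 2 value was 82.5. Among the genes above every other type, *Kirrel2*, a member of the nephrin family, was 2.68 above PCT on the log2 scale and *Nphs1* 2.26. The windows of these neighbouring genes share 3 peaks of 4 and 8, so their values are not separate.

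Of the slit diaphragm list, 17 of 18 genes lay above the mean of the other 12 types, with a median of 1.36 on the log2 scale, against -0.02 for all genes, of which 7926 of 16860 lay above. Here and for the other lists, the mean of the other types is that of their fitted log2 levels, so types with low levels pull it down. The rule was met by 5 of the 18 genes, among them *Nphs1*, *Kirrel2*, *Ptpro* and *Crb2*, against 0.552% of all genes. *Ptpro*, a receptor phosphatase of the foot process surface, had 275, 298, 379, 377 and 231, against 109 ± 19.1 in nephron progenitors. The polarity gene *Crb2* had 186, 180, 161, 135 and 140, against 53.4 ± 22.4. Both were above the next type in 5 of 5 samples. *Podxl* also led in 5 samples (238 ± 31.8) but did not meet the rule, since endothelial cells had 183 ± 34.0. *Magi1* was the exception, at 211 ± 40.1 below the mean of the others by a log2 value of -0.42. In all, 15 of the 18 genes had at least 1 podocyte-specific peak nearest to their start site, 34 peaks together, against 1072 of 21938 genes and 1485 peaks in all.

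Several genes of the foot process cytoskeleton were also open in other cell types. Of 22 genes, 19 lay above the mean of the other types, against 7926 of 16860 genes, with a median of 0.69. None met the rule, which is near the share of all genes (0.552%). *Synpo*, the actin-organising protein synaptopodin, had 365, 368, 493, 442 and 388 in podocytes, against 398 ± 97.2 in endothelial cells, so the cell types overlapped. *Nes*, the intermediate filament gene nestin, had 71.1 ± 13.9 against 38.9 ± 3.74 in endothelial cells and led in 5 of 5 samples, as did the formin gene *Inf2* (102 ± 9.61 against 69.5 ± 6.64). *Daam2*, another formin gene, was 2.09 above the mean of the others yet level with stroma 2 (251 ± 59.4 and 255 ± 66.7). Podocyte-specific peaks were nonetheless nearest to 8 of these 22 genes (against 1072 of 21938 genes), 24 in all, with 7 at *Arhgap24*, a Rac GTPase-activating protein, and 6 at *Kank1*.

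The adhesion and basement membrane list had a median of 0.44, with 14 of 20 genes above the mean of the others, against 7926 of 16860 genes. A podocyte-specific peak was nearest to 5 of the 20, against 1072 of 21938 genes, 6 peaks in all. *Itga3*, the laminin-binding integrin subunit of podocytes, met the rule (126, 148, 125, 166 and 140, against 92.0 ± 16.1 in nephron progenitors). *Col4a3* and *Col4a4*, chains of the mature glomerular collagen network, were 1.18 and 0.53 above the mean of the others, and their windows share 2 peaks. *Col4a1* and *Col4a2*, chains of the earlier network and of vascular membranes, were below it at -0.71 and -0.45, with 466 ± 130 and 373 ± 67.0 in endothelial cells. Laminin genes lay on both sides of the mean of the others, from -0.47 for *Lamb1* to 0.52 for *Lama5*.

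**Figure D4:**
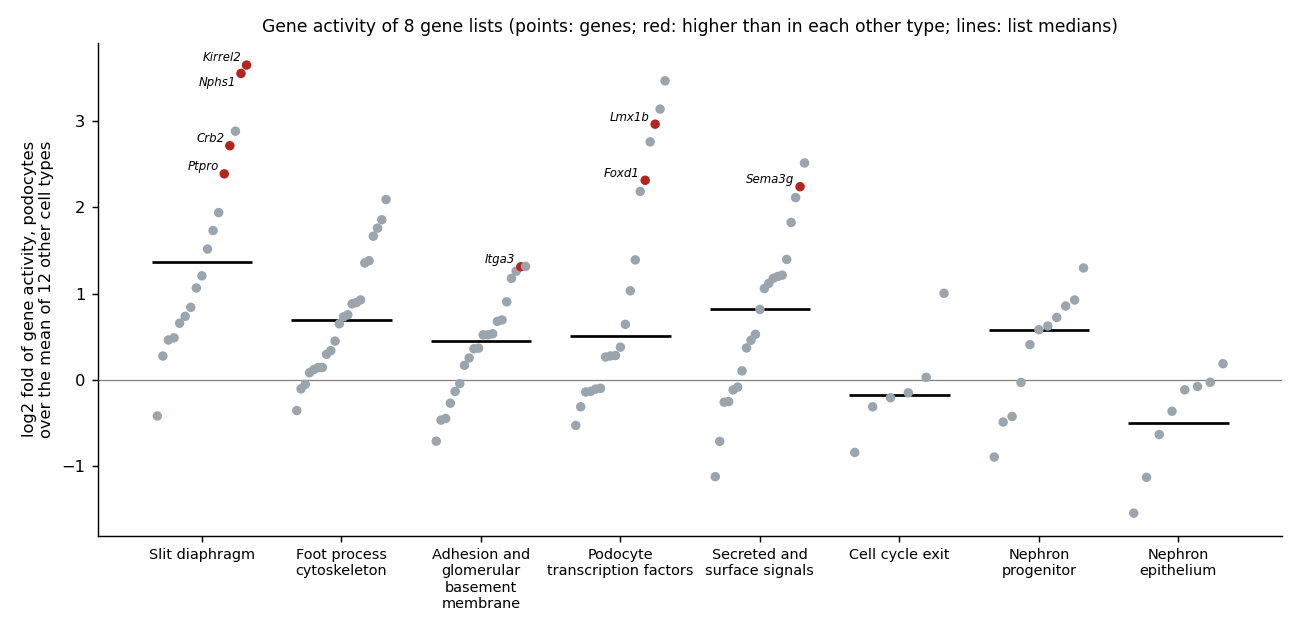
Log2 fold of gene activity in podocytes over the mean log2 level of the other 12 cell types (vertical axis) for tested genes of 8 lists, with the medians of the whole lists as lines and genes that met the rule in red. The slit diaphragm list has the highest median (1.36) and the nephron epithelium list the lowest (-0.50).

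Among 20 podocyte transcription factors, 14 lay above the mean of the others (median 0.51, against -0.02 for all genes), and 3 met the rule, among them *Lmx1b* and *Foxd1*, against 0.552% of all genes. Of the 20, 8 had a podocyte-specific peak, against 1072 of 21938 genes, 14 peaks in all. *Lmx1b* had 209 and 229 at P0 and 296, 289 and 252 in adult podocytes, against 93.4 ± 87.8 in nephron progenitors. *Foxd1*, better known from the stroma of the embryonic kidney, had 82.2, 72.5, 109, 61.1 and 49.5, against 26.2 ± 11.03 in stroma 1. *Wt1* missed the rule against nephron progenitors. *Tcf21*, *Foxc2* and *Foxl1* also led in 5 of 5 samples but had stroma 2 close behind, at 72.3 ± 21.2 against 92.0 ± 20.1 for *Tcf21*, 29.2 ± 6.96 against 46.0 ± 7.18 for *Foxc2* and 53.0 ± 14.6 against 82.9 ± 19.1 for *Foxl1*. *Tead1* and *Yap1*, which encode a TEAD factor and the partner YAP, had 414 ± 79.1 and 65.7 ± 7.17 and led in no sample.

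The secreted and surface list had a median of 0.82, and 15 of its 22 genes had at least 1 podocyte-specific peak, 35 peaks in all, against 1072 of 21938 genes. *Sema3g*, a podocyte semaphorin, met the rule (137, 146, 145, 143 and 161, against 70.0 ± 5.39 in endothelial cells). *Robo2*, the Slit receptor, had 273 ± 38.9 against 179 ± 38.6 in stroma 2, and *Clic5*, a foot process protein, 260 ± 86.3 against 160 ± 62.3 in endothelial cells, both leading in 5 of 5 samples. *Vegfa* had 101.3 ± 21.2, below PCT (145 ± 18.9), although 5 podocyte-specific peaks were nearest to it, all distal. For *Angpt1*, the Tie2 ligand, podocytes were at 29.5 ± 4.88, below stroma 2 at 141 ± 23.2.

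Genes of tubule epithelium were lower. The nephron epithelium list, with *Pax8* and *Cdh1*, had a median of -0.50, and 1 of its 10 genes lay above the mean of the others, against 7926 of 16860 genes. Of 6 cell cycle genes, *Cdkn1c*, the cell cycle inhibitor of mature podocytes, was 1.00 above the mean of the others and led in 5 of 5 samples (49.4 ± 8.31, against 36.1 ± 5.73 in stroma 2), while the median of the 6 was -0.18. The nephron progenitor list had a median of 0.58, with 7 of 11 genes above. No member met the rule, which is near the share of all genes (0.552%). Podocytes were second only to nephron progenitors in the summed level of 4 progenitor markers (123 and 126 at P0, 77.8, 54.8 and 37.1 in adult kidneys, a mean of 83.8, against a mean of 119).

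Outside the lists, the 15 genes with the largest fold over the highest other type included several that encode signalling and cytoskeletal proteins. *Npr3*, the natriuretic peptide clearance receptor, had 178, 186, 228, 251 and 214, against 35.3 ± 9.72 in stroma 1. The vesicle GTPase gene *Rab3b* had 132 ± 31.6 against 23.1 ± 16.7 in nephron progenitors, and the semaphorin gene *Sema3e* 124 ± 40.6 against 17.5 ± 7.54 in stroma 2. *Ddn*, the slit diaphragm associated protein dendrin, was 2.07 above the highest other type, *Nebl*, a nebulin-like actin binder, 2.11, and *Cyp11a1*, the enzyme that starts steroid synthesis, 2.15. *Srgap1*, a Slit-Robo GTPase-activating protein, had 698, 667, 732, 758 and 647, against 174 ± 43.1 in endothelial cells. *Gm11060*, 2.61 above, lies at chr2:105092018-105093760, before *Wt1* on the same chromosome, and 4 podocyte-specific peaks were nearest to it. The others were *Gm7489*, *Tmem54*, *BB014433* and *Gabra4*, from 1.88 to 4.29. *Gabra4* lost its call without the sample as a block and with any 1 sample left out. *Gm7489* lost it by DESeq2 and without P21, *BB014433* with the gene body alone, and *Cyp11a1* and *Nebl* without the block.

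By the number of podocyte-specific peaks nearest to a start site, 1072 genes had at least 1 and 818 had exactly 1. The 15 genes with at least 5 took 97 peaks together. *Srgap1* had 10, all intronic, and *Zbtb7c* 9, all intronic. *Gm826* had 9, all distal. *Arhgap24* had 7, *Npr3* and *Kank1* 6 each, and *Ptpro*, *Podxl*, *Fyn*, *Vegfa*, *Cited2*, *Auts2*, *Cdc14a* and *Galc* 5 each.

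The remaining gene of these 15, *Rpia*, had 10 peaks that lay 42081 to 718121 bp away from it on chromosome 6. Of these, 9 lay over exons of V segments of the immunoglobulin kappa locus, the gene segments that B cells recombine into antibody light chains. Of the 30 peaks over V segment exons on chromosome 6, 9 passed the filter on low counts, and these 9 were podocyte-specific. Being open in few nuclei of any other type, they passed the filter through podocytes, so this count is fixed by it. Of the 9, 2 chosen after their values were seen are given here. The peak at *Igkv6-32* (chr6:70073804-70074419) was open in 14.3% and 17.1% of P0 podocyte nuclei and in 17.0%, 11.5% and 30.8% of adult ones, against 1.95% of nephron progenitors. At *Igkv6-25* the values were 21.2%, 21.5%, 12.8%, 11.5% and 20.5%, against 2.39%. Over the 9 peaks podocyte means were 7.66% to 18.1% and those of immune cells at most 0.553%. The segments are related copies, with 74.8% to 99.1% identity of each peak to its closest other peak over 340 to 588 aligned bases, so reads from 1 copy may be counted at another, and the 9 are not independent. MAF letters were in 8 of the 9 whole peaks, against 14.1% of tested peaks, and the E-box in 7, against 42.0%. The *Igkv6-25* peak is shown because it holds both.
Igkv6-25 element, chr6:70215920-70216219: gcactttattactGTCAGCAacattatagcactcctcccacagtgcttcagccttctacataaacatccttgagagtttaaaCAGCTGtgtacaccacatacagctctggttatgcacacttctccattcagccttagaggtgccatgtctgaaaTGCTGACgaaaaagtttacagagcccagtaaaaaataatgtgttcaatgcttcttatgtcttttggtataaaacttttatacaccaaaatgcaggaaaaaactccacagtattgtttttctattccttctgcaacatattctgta

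Stage was not used to choose the nuclei, so P0 and adult podocytes could be tested over samples, 2 against 3. By edgeR's quasi-likelihood test with Benjamini-Hochberg adjustment, 476 of 13523 peaks were higher at P0 (3.52%) and 821 higher in adults (6.07%). Of genes, 774 of 12582 were higher at P0 (6.15%) and 820 higher in adults (6.52%). With no filter on low counts the larger number of peaks lay at P0, 5269 against 786 in adults. Among the peaks higher in adults 72.1% were distal or intronic and 13.4% held a start site, against 42.0% and 44.5% of those higher at P0 and 24.4% and 68.7% of all tested. Of 1031 podocyte-specific peaks tested, 173 were higher in adults (16.8%, against 6.07% of all peaks) and 30 at P0 (2.91%, against 3.52%), with a median log2 difference, P0 minus adult, of -0.35, against 0.0026 for all peaks. The rule chose these peaks, and the podocyte-specific genes, on the same podocyte sums. Of all 1485 podocyte-specific peaks 80.2% were distal or intronic, against 24.4% of the peaks tested here. The part of this choice and of element class in the difference was not tested. In the same nuclei 11 of 71 stroma 2-specific peaks tested (15.5%) and 11 of 76 PCT-specific ones (14.5%) were higher in adults, but 22 of 368 endothelial-specific ones were (5.98%), and the differences from podocyte-specific peaks were not tested. Of 92 podocyte-specific genes tested, 21 were higher in adults (22.8%) and 2 at P0 (2.17%), median -0.22. DESeq2 called fewer features, 89 peaks and 121 genes higher at P0 and 405 peaks and 218 genes higher in adults, of which 8 and 67 were podocyte-specific peaks and 0 and 4 podocyte-specific genes. With 39 podocyte nuclei drawn from every sample, edgeR called 1 and 2 of 3018 peaks and 117 and 71 of 6334 genes, so for genes the larger number then lay at P0. In that fit 0 of 136 podocyte-specific peaks passed in either direction (median -0.13, with 6 at P0 and 11 in adults at an unadjusted p under 0.05), and of 85 podocyte-specific genes 2 were higher in adults and 0 at P0 (11 and 3 unadjusted).

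Some slit diaphragm and foot process genes were more open in adult podocytes, in numbers that depended on the fit. Of the slit diaphragm list 7 of 17 genes tested were higher in adults and 2 at P0, and of the foot process list 9 of 21 and 1, against 6.52% and 6.15% of all genes. By DESeq2 the numbers higher in adults were 2 and 7, and with equal nuclei they were 1 of 17 and 2 of 16. *Plce1*, a phospholipase C that acts in podocyte development, had 140 and 167 at P0 and 374, 312 and 243 in adults, with no overlap (log2 -1.02, SE 0.15, adjusted p = 1.06e-05, edgeR). *Myo1e*, a myosin motor of the foot process, had 141 and 156 against 405, 367 and 338 (log2 -1.33, SE 0.14, adjusted p = 2.35e-08, edgeR). *Actn4*, alpha-actinin-4, had 204 and 257 against 462, 398 and 437 (-0.90, SE 0.14, adjusted p = 1.56e-05, edgeR), and did not pass with equal nuclei (-0.63, adjusted p = 0.102, edgeR). These genes were named for their change in this test, and every adult value of each lay above every P0 value. *Kank1*, *Tns2*, *Arhgap24*, *Myh9*, *Dlc1*, *Ezr* and *Vim* were higher in adults, at log2 values of -0.59 to -0.86, and *Magi2*, *Fat1*, *Pard3*, *Tjp1* and *Kirrel* at -0.41 to -0.65. The stages did not overlap for any of these 12 genes, but they were chosen by this test on the same samples. The share of all tested genes without overlap was not counted. *Nphs1* (-0.01) and *Podxl* (-0.28, adjusted p = 0.227, edgeR) did not pass. For *Actn4*, *Myo1e*, *Kank1*, *Ezr*, *Magi2*, *Fat1* and *Pard3* the highest other type was one of the tubule or collecting duct. *Ezr* had 250 in PCT, against 193 in podocytes, and *Pard3* 508 in PST, against 503. For the other genes higher in adults here it was a stromal, endothelial or immune type, with *Dlc1* at 637 in endothelial cells, against 331. The part of these types in the differences was not tested.

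The opposite direction was taken by *Kank4*, whose activity was 64.4 and 64.9 at P0 and 36.3, 12.6 and 20.6 in adults (log2 1.66, SE 0.31, adjusted p = 0.000229, edgeR), and by *Magi1* and *Kirrel3* (0.43 and 0.52), the 2 slit diaphragm genes higher at P0. DESeq2 and edgeR with equal nuclei each called 0 genes of that list higher at P0. Each had 2 genes of the list, not named here, at an unadjusted p under 0.05. *Kank1* and *Kank4*, which both encode adaptors of the cortical cytoskeleton, thus differed in direction. For *Kank4*, *Magi1* and *Kirrel3* another type was higher than podocytes. They had 81.6 in stroma 1, 404 in connecting tubule and 189 in nephron progenitors, against 39.8, 211 and 163 in podocytes. The part of these types in the differences was not tested. In the basement membrane list 5 of 20 genes were higher in adults and 1 at P0, against 6.52% and 6.15% of all genes. DESeq2 called 2 and 0 of them, and edgeR with equal nuclei 0 and 0 of 18 (4 and 1 at an unadjusted p under 0.05). *Col4a3* had 201 and 189 at P0 and 348, 356 and 400 in adults (-0.94, SE 0.14, adjusted p = 9.63e-06, edgeR), *Col4a4* was also higher in adults (-0.58), and *Col4a2* was higher at P0 (0.49, adjusted p = 0.0461, edgeR). *Col4a1* did not pass (-0.05). *Npnt*, *Itgb5* and *Dag1* were higher in adults at -0.52 to -0.79 by edgeR.

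A few genes of the progenitor state were higher at P0 by edgeR. Of 8 nephron progenitor genes tested 3 were higher at P0 and none in adults (against 6.15% and 6.52% of all genes), with a median of 0.78. DESeq2 called none of the 8 (2 at an unadjusted p under 0.05), and with equal nuclei 2 of the list could be tested, with a median of -0.14. *Itga8*, an integrin subunit of the metanephric mesenchyme, had 60.5 and 61.0 at P0 and 20.8, 16.9 and 33.0 in adults (log2 1.43, SE 0.30, adjusted p = 0.000871, edgeR). *Uncx* had 28.7 and 21.3 against 5.19, 2.11 and 12.4 (2.09, SE 0.60, adjusted p = 0.0163, edgeR), and *Eya1* was higher by 0.82 (adjusted p = 0.0497, edgeR). The Wnt effector *Lef1* had 141 and 108 against 46.7, 59.0 and 28.9 (1.31, SE 0.23, adjusted p = 0.000127, edgeR), the Notch target *Heyl* 55.1 and 47.4 against 15.6, 14.7 and 37.1 (1.24, adjusted p = 0.00892, edgeR), and the Wnt agonist *Rspo1* was higher by 1.40 (adjusted p = 0.0423, edgeR). *Flt1*, the VEGF receptor gene, *Pdgfa*, a growth factor gene, and *Cdh6*, the cadherin of early nephron epithelium, were higher at P0 by 0.81 to 0.95. Several of these genes had their highest level among the other types outside the progenitors, *Flt1* in endothelial cells (479, against 57.5 in podocytes), *Itga8* and *Heyl* in stroma 2 (153 and 103) and *Cdh6* in PST (90.7). Of 5 mesangial markers tested, *Itga8* alone passed, and the median of the 5 was 0.65. The part of other cell types in these differences was not tested. The stages did not overlap for any of these 9 genes, which were chosen by this test on the same samples. By DESeq2 *Lef1* alone of the 9 passed, and by edgeR without P56 replicate 1 the other 8 lost significance. *Rspo1*, *Eya1* and *Cdh6* lost it when any 1 adult sample was left out.

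**Figure D5:**
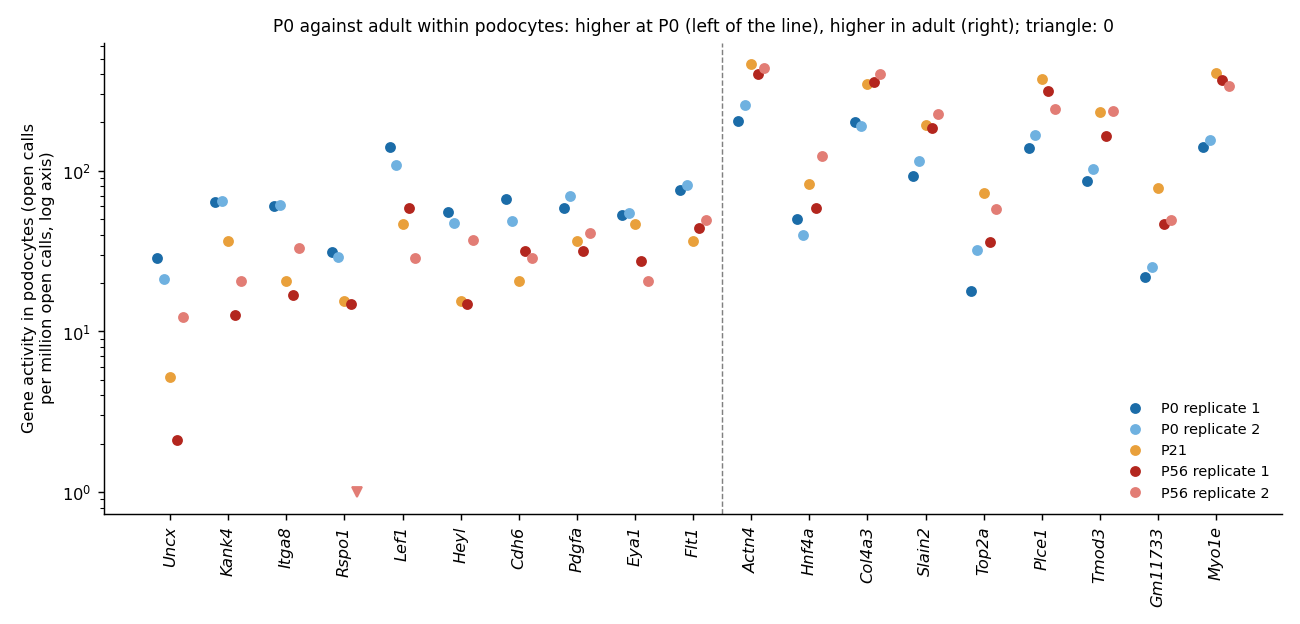
Gene activity in podocytes (open calls per 1000000 open calls, log axis) in each of 5 samples for 19 of the 20 list or podocyte-specific genes with the largest change (10 in each direction), P0 samples in blue. The points of the 2 stages do not overlap for any of the 19 genes, which were chosen for their stage change, and the triangle marks a value of 0.

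Of 20 transcription factors, 5 were higher in adults and 2 at P0, against 6.52% and 6.15% of all genes, and by DESeq2 and with equal nuclei 1 and 1 were. *Nfia* (-0.76), *Klf15* (-0.88), *Tead1* (-0.50) and *Creb3l2* (-0.49) were among the former, and *Lef1* and *Heyl* were the latter. Another type was higher for *Nfia* (421 in stroma 2, against 240 in podocytes), *Klf15* (115 in intercalated cells, against 48.4) and *Tead1* (459 in nephron progenitors, against 414). *Creb3l2* had its highest mean in podocytes. *Klf15* had 36.3 at P21, close to the P0 values of 34.1 and 33.8. *Wt1*, *Foxc1*, *Foxc2*, *Foxd1*, *Foxl1* and *Tcf21* did not pass, with log2 differences between -0.18 and 0.25. Of the secreted and surface list 6 of 21 were higher in adults and 3 at P0, against 4 and 0 by DESeq2 and 0 and 0 of 15 with equal nuclei (6 and 1 at an unadjusted p under 0.05). Those higher in adults were *Ntrk3* (-0.90), *Clic5* (-0.84), *Sema5a* (-0.74), *Nrp1* (-0.69), *Tgfbr3* (-0.58) and *Vegfa* (-0.53). The podocyte-specific genes with the largest adult gain were *Gm11733* (-1.22), *Tmod3*, which caps actin filaments (-1.10), and *Slain2*, a microtubule growth factor (-0.95).

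Single elements also differed between the stages, and the 4 given here were chosen after their values were seen. A podocyte-specific distal peak 13207 bp from *Cbx7*, which encodes a Polycomb subunit, was open in 20.2% and 21.5% of P0 podocyte nuclei and in 2.13%, 3.18% and 10.3% of adult ones (log2 2.02, SE 0.38, adjusted p = 0.000238, edgeR). Another near *Arpp21* was open in 23.8% and 29.3% against 8.51%, 4.46% and 7.69%. In the other direction, a distal peak 198136 bp from *Nampt* was open in 1.63% and 3.59% at P0 and in 25.5%, 15.3% and 20.5% of adult podocyte nuclei (-3.03, SE 0.41, adjusted p = 1.41e-06, edgeR), and one near *BC048507* in 3.91% and 8.84% against 31.9%, 19.7% and 43.6%. The stages did not overlap at these 4 peaks.

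Of 4 proximal tubule markers tested in the same nuclei, 3 were higher in adults and none at P0 by edgeR, and of 9 nephron epithelium genes 2 were higher in adults and 2 at P0, against 6.52% and 6.15% of all genes. *Hnf4a*, a transcription factor of tubule epithelium, was higher in adult podocyte nuclei (-0.92), as were the proximal tubule genes *Slc34a1* (-1.43) and *Lrp2* (-1.07) and the distal gene *Slc12a3* (-1.67). Open calls in PCT-specific peaks were 0.698% and 0.617% of podocyte calls at P0 and 1.37%, 1.21% and 1.95% in adults, against 5.29% in PCT itself. Podocyte-specific peaks went from 3.48% and 3.68% of calls at P0 to 4.81%, 4.56% and 4.01% in adults, and endothelial-specific peaks held 2.71% to 2.80% in 4 samples and 3.55% in P56 replicate 2. The part of proximal tubule signal in the stage differences was not tested. *Top2a*, a gene of dividing cells, was also higher in adults (-0.96, adjusted p = 0.0365, edgeR), and like *Hnf4a* it did not pass by DESeq2.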

How the data were processed

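The deposited matrix holds binarized counts (1 where a nucleus has a fragment in a peak), with the sample and cluster of each nucleus in the authors' annotation. Per the labels and methods, Cell Ranger ATAC 1.1.0 aligned reads to mm10, nuclei were clustered over all samples with SnapATAC and Harmony, and MACS2 peaks called per cell type were merged. How doublets were treated was not given in the sources used here. Nothing says that samples came from separate animals, so p-values measure the spread between samples, which may be technical. Binarizing removes differences in fragment number within a peak, and peak calls on the pooled nuclei of a type depend on how many nuclei it has.

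Counts were summed per sample and cell type (at least 20 nuclei) and tested with edgeR 4.0.16 (quasi-likelihood, TMM, filterByExpr, Benjamini-Hochberg threshold 0.05), with the sample as a term between types and without it between stages. A type-specific feature had to pass against each of the 12 other types. Element classes, gene windows and start sites come from GENCODE M21 on GRCm38, elements in the order exon, UTR, intron, 5 kb before a start site, distal. Motif letters were matched exactly with pysam in the central 300 bp. Identity of peaks is from a biotite local alignment.

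Members and lists were chosen with earlier results of these data known. Named genes were those of the lists, the 15 with the most specific peaks, the 15 with the largest fold, those lower than every other type, and the 10 with the largest stage change each way, and sequences were those of the most open intronic or distal peak at 6 genes (of which *Nphs1* and *Wt1* had none and that of *Synpo* is not shown) and of the 4 most open of all. Some genes that the rules name are not reported here, though they stay in the fits and list counts. Further peaks are said to be added where they appear.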

Additional observations from a re-analysis of the deposited data

Results flagged for a closer look

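Over groups of 5 samples, 1 value standing apart from the other 4 was looked for in 189 podocyte measures, and chance alone gives such a value in about 1 of 20 groups. The P21 sample stood above the others in *Foxc1*, with 134.9 open calls per 1000000 against 74.2 to 89.99, in *Klf6* with 140.1 against 71.9 to 90.7, in *Sall1* with 150.5 against 81.8 to 96.9, and in *Lama5* with 197.2 against 133 to 151. P56 replicate 2 stood above the others in 2 tubule genes, *Cdh1* with 82.5 against 35.97 to 46.7 and *Cubn* with 127.8 against 99.7 to 104. In the same sample 3.55% of podocyte open calls lay in endothelial-specific peaks, against 2.71% to 2.80%. These 2 samples held the fewest podocyte nuclei, 47 and 39.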

How the results depend on the processing

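The limits of these data are the 5 samples, of which the P21 sample and P56 replicate 2 held 47 and 39 podocyte nuclei, and the sparse calls, so that a peak open in few nuclei was seldom tested between stages (13523 of 300755 peaks). All alternatives were planned. Under them the reported genes with the largest fold over other types or the largest stage change were followed. Of their values 251 kept their call, 63 lost significance and none changed sign. A gene that could not be tested under an alternative was left out of this tally, as were the other named genes. The number of podocyte-specific peaks was 661 without the sample term (no replicate block), 142 with nuclei thinned to 1000 open peaks and 3562 by pairwise Fisher's exact tests over nuclei, and 777 to 1198 with 1 sample left out (777 without P0 replicate 2, 970 without P0 replicate 1, 963 without P56 replicate 2). Podocyte-specific genes numbered 39 with no replicate block and 56 to 74 with 1 sample left out (56 without P56 replicate 1, 60 without P21). The cause of these differences was not tested.

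Between stages, peaks higher at P0 numbered 89 by DESeq2, 5269 with no filter on low counts (against 786 in adults) and 1 with equal nuclei per sample, and those higher in adults 405 by DESeq2 and 2 with equal nuclei. Genes higher at P0 numbered 121 by DESeq2 and 117 with equal nuclei, and those higher in adults 218 and 71. With 1 sample left out the counts ran from 137 to 596 peaks and 278 to 577 genes at P0 and from 154 to 1156 peaks and 251 to 668 genes in adults. Without P0 replicate 1 or 2 they were 137 and 225 peaks and 278 and 415 genes at P0, and 154 and 184 peaks and 278 and 251 genes in adults, and genes at P0 also fell to 444 without P21 and 467 without P56 replicate 1. A single P0 sample was then assumed to vary like the adult ones. For P0 against P56 alone, the counts with the replicate number as a replicate block were 450 and 973 peaks and 577 and 715 genes, and without it 465 and 1156 peaks and 444 and 606 genes. Samples of the 2 stages share a replicate number, and whether equal numbers mark a shared batch was not tested. The deviations of P0 and P56 replicate 1 correlated at 0.108, and with 2 pairs this 1 value cannot decide it. Of 19 genes with the largest stage changes, 11 lost significance by DESeq2 (*Uncx*, *Itga8*, *Rspo1*, *Heyl*, *Cdh6*, *Pdgfa*, *Eya1*, *Flt1*, *Gm11733*, *Top2a*, *Hnf4a*), and with equal nuclei 8 could be tested, of which 3 did (*Col4a3*, *Hnf4a*, *Actn4*).

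With nuclei thinned to 1000 open peaks the start-site shares in podocytes were 6.03% (*Nphs1*), 7.36% (*Wt1*), 6.43% (*Podxl*) and 5.89% (*Synpo*), still above the next type's mean in each. The distal and intronic share was 83.2% with a promoter of 2 kb and 72.2% with promoters assigned first. Searched over the whole peak, motif shares were 16.6% (WT1), 3.57% (EGR), 19.9% (MAF), 13.6% (FOX), 51.7% (TCF21), 29.2% (LMX1B), 26.9% (TEAD), 2.22% (HNF4), 17.4% (AP-1), 13.6% (ETS), 3.16% (SIX2), 9.63% (CTCF), 7.003% (GATA), 11.99% (RUNX) and 7.14% (SOX), each on the same side of the tested peaks as before.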
